A study of Mus musculus with 20 samples.

Results

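The genes described here are 36 genes of glycolysis and of the transcriptional response to low oxygen, followed in clonal lines of ATDC5, mouse chondrogenic cells that insulin drives toward a cartilage fate. They were taken from a list of symbols, and all 36 were found among the 27911 genes of the deposited table. The set holds 3 glucose and lactate transporters, 16 glycolytic enzymes, 3 metabolic switches, 2 genes of oxygen sensing and HIF, 4 secreted or surface hypoxia targets and 8 intracellular hypoxia targets. A filter on low counts left 15467 genes in the tests, and all 36 passed it. They lie on 14 chromosomes.

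Glycolysis breaks glucose down to pyruvate in the cytosol, and lactate dehydrogenase turns pyruvate into lactate, which lets the pathway run without oxygen. The hypoxia-inducible factors (HIFs) are dimers of an alpha and a beta subunit. When oxygen is plentiful, prolyl hydroxylases mark the alpha subunit for destruction through the von Hippel-Lindau protein. When oxygen is scarce, the dimer binds short promoter elements and raises the transcription of transporters, glycolytic enzymes, carbonic anhydrases, angiogenic factors and mitophagy receptors. Cartilage has no blood vessels, and growth plate chondrocytes of the mouse depend on HIF and on glycolysis.

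RNA sequencing compared 2 Kmt2d-/- clones, in which both alleles of Kmt2d lack the catalytic SET domain, with 3 Kmt2d+/+ clones. Both groups are stable ATDC5 lines. The clones are separate lines, and all were harvested at day 7 of chondrogenic differentiation and undifferentiated at day 0. Kmt2d encodes a histone lysine methyltransferase. The labels call the Kmt2d-/- clones 10-7 (clone 1) and 96-9 (clone 2), while the Kmt2d+/+ clones are 10-5 (clone 1), 10-7 (clone 2) and 10-8 (clone 3). The comparisons ask how the loss of the domain and how differentiation change expression, and a genotype effect here rests on a few clonal lines.

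Summed over 2 technical replicates each, the 10 libraries held 35792709 to 66237183 counts. Kmt2d itself stood at 113.3 to 174.8 CPM (counts scaled to a common library size, adjusted by TMM) in the Kmt2d-/- clones at day 7, against 173.3 to 207 CPM in the Kmt2d+/+ clones. A count of the entire gene includes exons outside the deletion, so it checks neither the labels nor the loss. The 11 chondrocyte markers together reached 23550 to 27750 CPM in Kmt2d-/- clones and 304.2 to 1051 CPM in Kmt2d+/+ clones at day 7, and 1016 to 2839 CPM in Kmt2d-/- clones and 38.6 to 127.6 CPM in Kmt2d+/+ clones at day 0. The 7 hypertrophic markers summed to 1494 to 1768 CPM in Kmt2d-/- clones and 1723 to 2220 CPM in Kmt2d+/+ clones at day 7. Markers of muscle, endothelial and immune cells were low. The skeletal muscle list summed to at most 0.812 CPM with Myog and Ckm at 0 in every library, the endothelial list to at most 17.7 CPM and the immune list to at most 12.03 CPM. The adipocyte list summed to at most 185 CPM, in Kmt2d+/+ clone 2 at day 7, where Lpl alone held 159.4 CPM. At day 0 it summed to 23.4 to 126.4 CPM in the Kmt2d+/+ clones, a range like that of their chondrocyte markers.

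The HIF dimer is known to bind a core of 5 letters, ACGTG or GCGTG. RefSeq promoter windows (GRCm38.p6) were matched for 32 of the 36 genes. Both words were searched on both strands in the 250 bases before the start, and a palindromic CACGTG counts as 2 matches of ACGTG, 1 on each strand. At least 1 match was found in 23 of the 32 windows (71.9%), against 54.7% of the 11205 tested genes with a window and 45.2% of all 16284 genes with a window. At least 2 matches were found in 15 of the 32 (46.9%), against 26.5% of the tested genes. A match describes the letters in this window only. The 5 windows shown are those of 4 genes that rose at day 7 in the Kmt2d+/+ clones (Aldoc, Car9, Bnip3, Ddit4) and that of Ldha, which has 5 matches and passed in no comparison. The capitals mark the matches, and one on the opposite strand reads CACGT or CACGC. All are printed 5′ to 3′ on the strand of the gene, and they lie at chr11:78322823-78323072 (Aldoc, plus strand), chr4:43506776-43507025 (Car9, plus), chr7:138909507-138909756 (Bnip3, minus), chr10:59951771-59952020 (Ddit4, minus) and chr7:46845554-46845803 (Ldha, plus, inside the span that GENCODE gives the gene).
Aldoc: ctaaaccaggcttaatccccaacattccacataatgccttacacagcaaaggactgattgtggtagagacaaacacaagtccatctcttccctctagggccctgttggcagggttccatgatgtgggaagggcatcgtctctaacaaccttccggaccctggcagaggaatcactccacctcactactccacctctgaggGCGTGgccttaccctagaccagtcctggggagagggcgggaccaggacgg
Car9: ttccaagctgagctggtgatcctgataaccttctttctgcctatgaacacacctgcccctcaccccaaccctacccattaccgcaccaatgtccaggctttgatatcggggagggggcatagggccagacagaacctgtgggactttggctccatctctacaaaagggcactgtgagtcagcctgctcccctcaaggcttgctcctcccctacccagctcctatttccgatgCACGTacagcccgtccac
Bnip3: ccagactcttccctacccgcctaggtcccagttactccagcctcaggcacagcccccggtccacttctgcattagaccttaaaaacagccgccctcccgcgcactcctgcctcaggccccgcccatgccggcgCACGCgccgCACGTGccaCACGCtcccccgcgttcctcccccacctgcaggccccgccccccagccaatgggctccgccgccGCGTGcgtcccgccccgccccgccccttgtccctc
Ddit4: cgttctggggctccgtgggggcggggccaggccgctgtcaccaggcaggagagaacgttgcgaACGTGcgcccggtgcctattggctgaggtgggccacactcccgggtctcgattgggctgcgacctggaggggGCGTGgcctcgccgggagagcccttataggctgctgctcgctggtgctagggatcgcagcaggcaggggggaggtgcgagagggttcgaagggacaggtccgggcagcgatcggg
Ldha: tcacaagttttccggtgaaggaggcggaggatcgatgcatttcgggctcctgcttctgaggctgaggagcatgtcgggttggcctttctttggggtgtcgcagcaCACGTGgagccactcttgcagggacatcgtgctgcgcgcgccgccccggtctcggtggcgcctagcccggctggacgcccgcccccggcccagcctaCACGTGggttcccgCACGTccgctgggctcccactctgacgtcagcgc

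Aldoc and Car9 hold 1 match each, Ddit4 holds 2, and Bnip3 and Ldha hold 5 each. Mxi1, which also rose at day 7, has no match in its window, and neither have Hk1, Gpi1, Aldoa, Tpi1, Eno2, Pkm, Vegfa and Car12. Windows with and without a match thus stood on both sides of the threshold.

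The first comparison asked which of these genes changed between day 0 and day 7 within a genotype. In the Kmt2d+/+ clones 8 of the 36 rose and 0 fell (edgeR adjusted p under 0.05), which is 22.2% of them against 3.05% of all tested genes called higher. The genes that rose were the aldolase Aldoc, the phosphofructokinases Pfkm and Pfkp, the HIF subunit gene Epas1, the carbonic anhydrase Car9, the mitophagy receptor Bnip3, and Ddit4 and Mxi1, which restrain growth signals. By the GENCODE annotation of GRCm38 they lie at chr11:78322968-78327781 (Aldoc), chr15:98092589-98132451 (Pfkm), chr13:6579768-6648777 (Pfkp), chr17:86753700-86833410 (Epas1), chr4:43506966-43513729 (Car9), chr7:138890836-138909519 (Bnip3), chr10:59949669-59951834 (Ddit4) and chr19:53310518-53375810 (Mxi1), and the counts are summed over all exons of each gene. In the Kmt2d-/- clones Aldoc rose and no other gene of the 36 passed, a count of 1 (2.78%) against 0.672% of all tested genes called higher. Fewer cells of a type and less RNA per cell cannot be told apart in these bulk samples. The chondrocyte markers named above moved with the day in both genotypes, and their part in these results was not tested.

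The libraries of day 7 and day 0 come from the same clone, so each clone was also entered as a term. With that term 11 genes rose in the Kmt2d+/+ clones (30.6%, against 10.3% of all tested genes called higher), Eno2, Pfkfb4 and Bnip3l being added to the 8. In the Kmt2d-/- clones 5 rose (13.9%, against 3.16% of all tested genes), namely Slc2a1, Pfkp, Aldoc, Higd1a and Ddit4. Without Kmt2d+/+ clone 1 or without Kmt2d+/+ clone 3 no gene of the whole table passed in the Kmt2d+/+ comparison, and without clone 2 Pfkm, Aldoc, Pfkfb4, Epas1 and Car9 passed, 4 of them among the 8. The next shares count all tested genes that passed in either direction. By DESeq2, 10 of the 36 rose in the Kmt2d-/- clones, where 6.46% of all tested genes passed, and 9 in the Kmt2d+/+ clones, where 14.7% passed. The 10 were Slc2a1, Pfkp, Aldoc, Tpi1, Epas1, Car12, Bnip3, Bnip3l, Higd1a and Ddit4. The 9 were Pfkm, Pfkp, Aldoc, Epas1, Car12, Bnip3, Bnip3l, Ddit4 and Mxi1. By limma-voom, 1 rose in the Kmt2d-/- clones, where 1.16% passed, and 5 in the Kmt2d+/+ clones, where 5.08% passed.

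Fitted differences were positive for 33 of the 36 genes in the Kmt2d-/- clones, with a median log2 fold change of 0.49 against 0 over all tested genes. They were positive for 28 in the Kmt2d+/+ clones, with a median of 0.41 against 0.03. Counted by clone, 15 genes (41.7%) were higher at day 7 than at day 0 in all 5 clones, against 20.2% of all tested genes. Those 15 were Hk1, Gpi1, Pfkm, Pfkp, Aldoc, Eno2, Pdk1, Epas1, Car9, Car12, Bnip3, Bnip3l, Higd1a, Ddit4 and Mxi1. Slc2a3 was lower at day 7 in all 5 clones, and its difference passed in neither genotype.

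**Figure D1:**
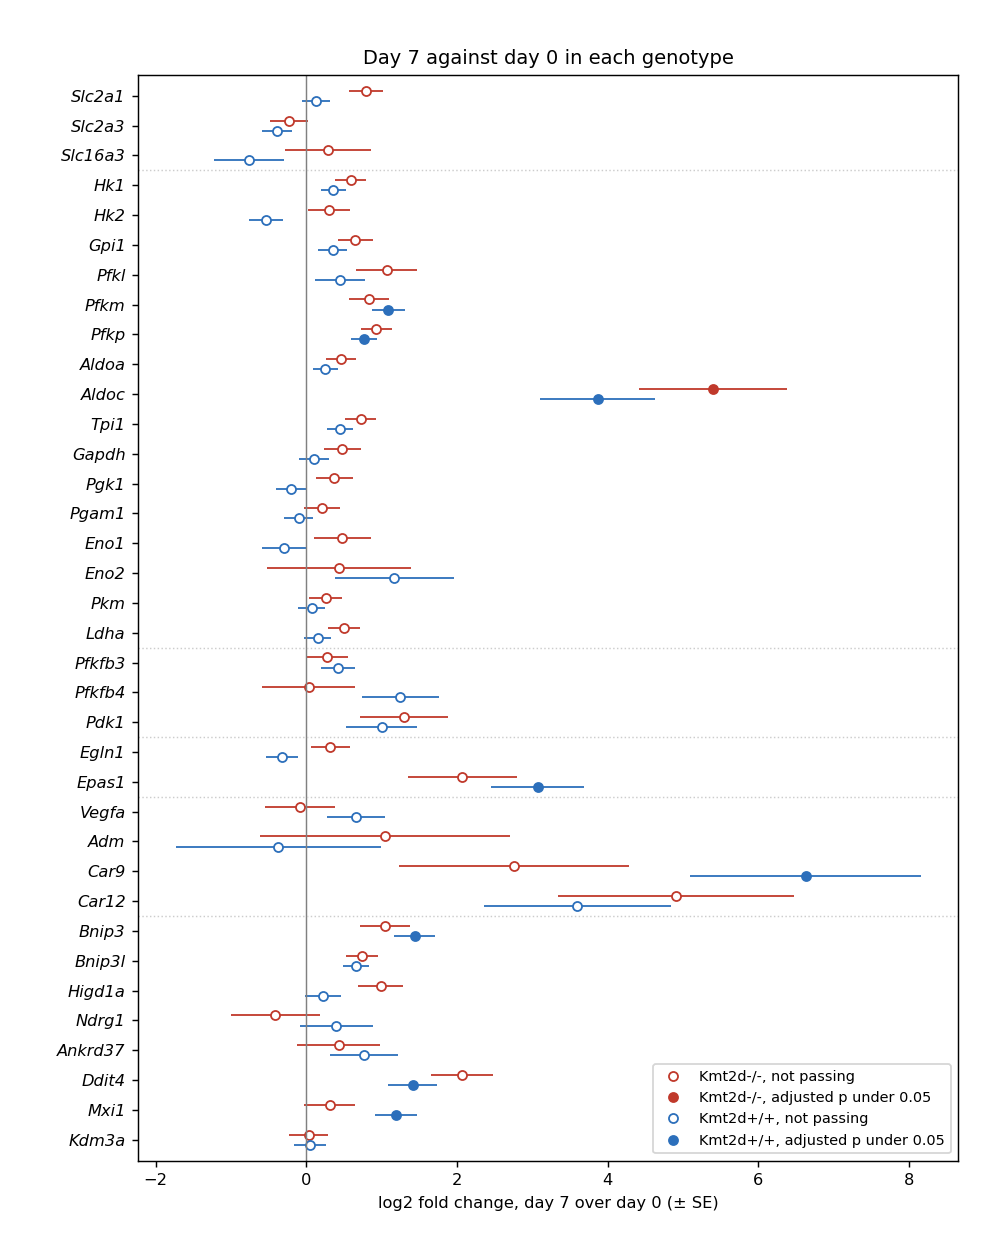
Log2 fold change of day 7 over day 0 with its standard error (x axis) for each of the 36 genes (y axis, in blocks by role), fitted in Kmt2d-/- clones (red, n = 2) and Kmt2d+/+ clones (blue, n = 3). Filled circles have an edgeR adjusted p under 0.05: 1 gene (Aldoc, at 5.40) in Kmt2d-/- and 8 in Kmt2d+/+ clones, among them Car9 at 6.63 and Pfkp at 0.77.

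Among the transporters, Slc2a1 (GLUT1) brings glucose into most cells, Slc2a3 (GLUT3) is a second glucose carrier, and Slc16a3 (MCT4) exports lactate. Slc2a1 measured 115.8 and 150.2 CPM in Kmt2d-/- clones 1 and 2 at day 7, against 75.7 and 78.5 CPM at day 0. In Kmt2d+/+ clones 1, 2 and 3 it stood at 75.7, 99.3 and 74.0 CPM at day 7, against 63.4, 89.5 and 74.5 CPM at day 0. Both Kmt2d-/- clones were thus higher at day 7, and above every Kmt2d+/+ clone, while the Kmt2d+/+ values of the days overlapped. The difference in the Kmt2d-/- clones did not pass without the clone term (log2 fold change 0.79, SE 0.23, edgeR adjusted p = 0.142) and passed with it (0.77, SE 0.14, edgeR adjusted p = 0.0371). Slc2a3 averaged 14.96 ± 3.21 CPM in Kmt2d-/- clones (SD, n = 2) and 19.6 ± 2.82 CPM in Kmt2d+/+ clones (SD, n = 3) at day 7. Slc16a3 was scarce, at 0.659 to 2.32 CPM over the 10 libraries, and passed in no comparison.

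The 16 enzymes of glycolysis summed to 10160 and 8753 CPM in Kmt2d-/- clones 1 and 2 at day 7, against 6968 and 6776 CPM at day 0. In Kmt2d+/+ clones 1, 2 and 3 the sum was 7547, 8455 and 5782 CPM at day 7, against 6822, 6554 and 6964 CPM at day 0. The enzymes thus took 0.875% to 1.02% of the scaled counts in Kmt2d-/- and 0.578% to 0.846% in Kmt2d+/+ clones at day 7. Counts assigned to near-identical copies, described below for Eno1, Gapdh, Pgk1 and Pgam1, are left out of these sums and shares. Kmt2d+/+ clone 3 was the only clone of the 5 with a lower sum at day 7. All 16 enzymes had a positive fitted day difference in the Kmt2d-/- clones and 12 of 16 in the Kmt2d+/+ clones, and 1 and 3 of them passed.

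Aldoc, the aldolase form best known from brain, rose in both genotypes. It measured 23.3 and 28.5 CPM in Kmt2d-/- clones 1 and 2 at day 7, against 0.604 and 0.619 CPM at day 0. The Kmt2d+/+ clones had 9.38, 3.51 and 6.20 CPM at day 7, against 0.258, 0.0696 and 0.948 CPM at day 0. Within each genotype no day 0 value reached a day 7 value, and both Kmt2d-/- clones exceeded every Kmt2d+/+ clone at day 7. The fold was 42.1 in the Kmt2d-/- clones (log2 fold change 5.40, SE 0.99, edgeR adjusted p = 0.0439) and 14.7 in the Kmt2d+/+ clones (3.87, SE 0.76, edgeR adjusted p = 0.0303). Without Kmt2d+/+ clone 1 the fold in the Kmt2d+/+ clones was 9.42 (edgeR adjusted p = 0.201), and without Kmt2d+/+ clone 3 it was 39.4 (edgeR adjusted p = 0.186). Without Kmt2d-/- clone 1 or clone 2 the edgeR adjusted p in the Kmt2d-/- clones was 0.418 and 0.339. At day 7 the genotypes differed by a log2 fold change of 2.02 (SE 0.73), which did not pass in edgeR (adjusted p = 0.172). It passed in limma-voom, with an adjusted p of 0.0333, and in DESeq2, with one of 0.0426.

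The phosphofructokinases catalyse the committed step of glycolysis. Pfkm, the muscle form, measured 115.9 and 150.6 CPM in Kmt2d-/- clones 1 and 2 at day 7, against 67.2 and 82.4 CPM at day 0. Kmt2d+/+ clones 1 to 3 held 154.3, 112.3 and 102.3 CPM at day 7, against 52.7, 71.4 and 48.9 CPM at day 0. Every clone was higher at day 7, and within each genotype the days did not overlap. The difference passed in the Kmt2d+/+ clones (log2 fold change 1.09, SE 0.22, edgeR adjusted p = 0.0326) and not in the Kmt2d-/- clones (0.83, SE 0.27, edgeR adjusted p = 0.181).

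Pfkp, the platelet form, was 77.2 and 86.4 CPM in Kmt2d-/- clones 1 and 2 at day 7, against 38.04 and 47.6 CPM at day 0. Kmt2d+/+ clones 1, 2 and 3 held 67.2, 84.5 and 63.7 CPM of it at day 7, against 36.5, 48.1 and 41.98 CPM at day 0. Every clone was higher at day 7 and the days did not overlap in either genotype, with log2 fold changes of 0.93 (SE 0.21, edgeR adjusted p = 0.0750) in Kmt2d-/- and 0.77 (SE 0.17, edgeR adjusted p = 0.0417) in Kmt2d+/+ clones, and the Kmt2d-/- value passed with the clone term (edgeR adjusted p = 0.0212). Pfkl, the liver form, reached 180.2 and 328.1 CPM in Kmt2d-/- clones 1 and 2 at day 7, against 84.1 and 158.7 CPM at day 0. Its Kmt2d+/+ levels were 131.6, 107.1 and 69.4 CPM at day 7, against 69.0, 68.2 and 88.5 CPM at day 0. Kmt2d+/+ clone 3 alone was lower at day 7, and the day difference of Pfkl passed in neither genotype.

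**Figure D2:**
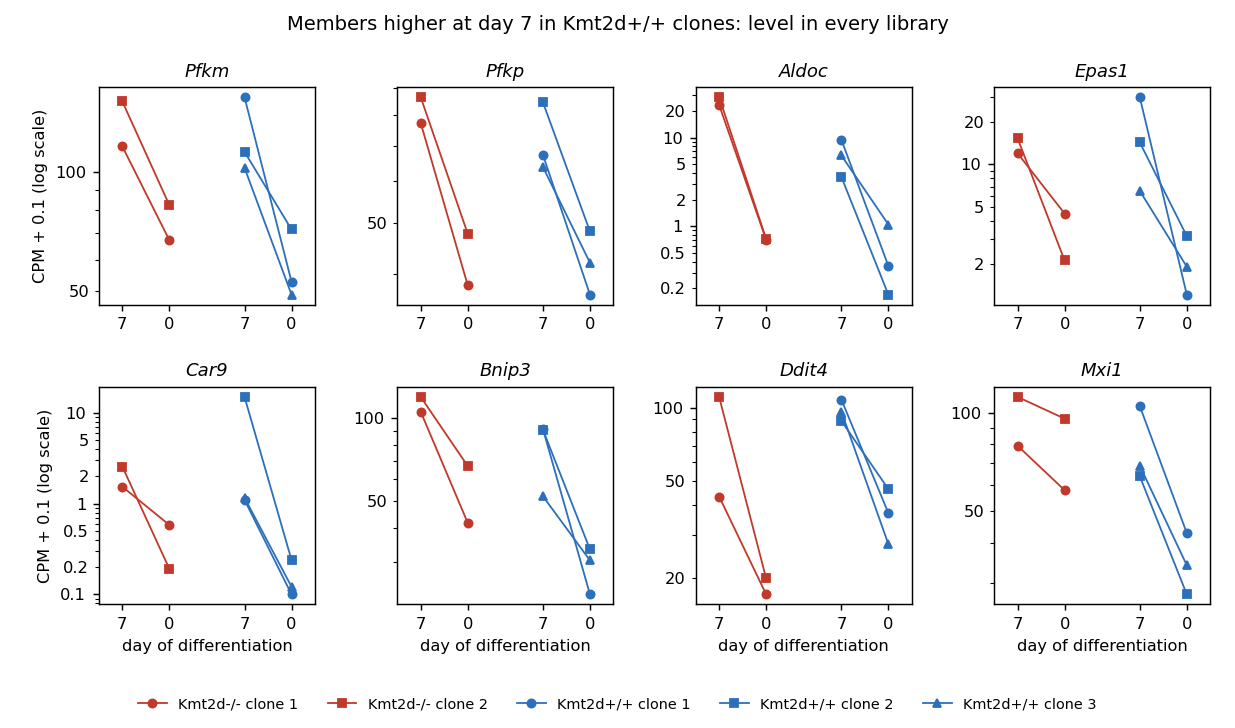
Level in every library (y axis, CPM plus 0.1, log scale) of the 8 genes that rose at day 7 in Kmt2d+/+ clones, with day 7 to the left of day 0 (x axis) and a line joining the libraries of a clone, for Kmt2d-/- (red) and Kmt2d+/+ clones (blue). Every line is higher at day 7 in all 8 panels; Car9 of Kmt2d+/+ clone 2 stands apart at 14.98 CPM.

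No gene of the remaining steps passed between days in edgeR without the clone term, while DESeq2 called Tpi1 in the Kmt2d-/- clones (adjusted p = 0.0311). Gapdh, which oxidises the triose phosphate, averaged 2441 ± 541 CPM in Kmt2d-/- clones at day 7 (SD, n = 2) and 1650 ± 322 CPM in Kmt2d+/+ clones (SD, n = 3). Tpi1, the triose phosphate isomerase, measured 979.8 and 857.4 CPM in Kmt2d-/- clones 1 and 2 at day 7, against 517 and 595.1 CPM at day 0. Among Kmt2d+/+ clones it measured 675.6, 643 and 457.7 CPM at day 7, against 412, 422.5 and 469.3 CPM at day 0. Both Kmt2d-/- clones lay above every Kmt2d+/+ clone at either day, and neither day difference passed (edgeR adjusted p = 0.143 in Kmt2d-/- and 0.152 in Kmt2d+/+ clones). Ldha, which makes lactate, averaged 1098 ± 152 CPM in Kmt2d-/- (SD, n = 2) and 947.5 ± 203 CPM in Kmt2d+/+ clones (SD, n = 3) at day 7, with log2 fold changes of 0.50 and 0.15 over day 0 that did not pass (edgeR adjusted p = 0.321 and 0.645). The pyruvate kinase gene Pkm, whose gene-level count does not tell its splice forms apart, differed by log2 fold changes of 0.26 and 0.07, with edgeR adjusted p of 0.672 and 0.858.

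Hk1, the hexokinase of most tissues, and Gpi1, the phosphoglucose isomerase, were higher at day 7 in every clone, by log2 fold changes of 0.59 and 0.65 in Kmt2d-/- and 0.36 and 0.35 in Kmt2d+/+ clones that did not pass. Aldoa, the main aldolase, differed by 0.46 in Kmt2d-/- and 0.25 in Kmt2d+/+ clones, and neither passed. The phosphoglycerate kinase gene Pgk1 and the enolase gene Eno1 had fitted values of opposite sign, 0.37 and 0.48 in Kmt2d-/- against -0.20 and -0.29 in Kmt2d+/+ clones, none of which passed. Eno2, the neuronal enolase, differed widely among the clones of a genotype. It measured 13.1 and 4.33 CPM in Kmt2d-/- clones 1 and 2 at day 7, against 11.3 and 1.54 CPM at day 0. In Kmt2d+/+ clones 1, 2 and 3 it stood at 19.0, 4.95 and 17.3 CPM at day 7, against 7.53, 2.92 and 7.92 CPM at day 0. Every clone was higher at day 7, and the Kmt2d+/+ difference passed with the clone term (log2 fold change 1.08, SE 0.28, edgeR adjusted p = 0.0456) and not without it (edgeR adjusted p = 0.401).

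Reads of some of these enzymes are shared with near-identical copies in the annotation. Eno1b, which is 99.5% identical to Eno1 over 1736 bases, took 51.5% to 54.4% of the counts of the pair, and Gm10359, identical to Gapdh over 1002 bases, took 29.8% to 33.6% of that pair. Gm5537 took 18.2% to 22.2% beside Pgk1, and Pgam1-ps2 took 12.9% to 17.9% beside Pgam1. The levels of Eno1, Gapdh, Pgk1 and Pgam1 are uncertain for that reason. When the counts of such copies were added, Eno1 averaged 1076 ± 202 CPM in Kmt2d-/- (SD, n = 2) and 726.2 ± 271 CPM in Kmt2d+/+ clones (SD, n = 3) at day 7. The same 8 genes and Aldoc passed, and no call was added.

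Within a family, levels were compared per length, as CPM per kilobase of exon. The length counts every base in any annotated exon of the gene, which can exceed the expressed transcript. It was 6675 bases for Pfkl, 3340 for Pfkm and 13401 for Pfkp. Which form ranks first can depend on it. By CPM alone, Pfkl averaged 254.1 and Pfkm 133.3 in Kmt2d-/- clones at day 7. In Kmt2d+/+ clones at day 0, Hk1 averaged 167.8 CPM and Hk2 149.9 CPM. Slc2a1 gave 93.3% to 96.1% of the glucose transporter level in Kmt2d-/- clones at day 7 and 87.8% to 92.6% in Kmt2d+/+ clones. Aldoa gave 95.4% to 96.0% of the aldolase level in Kmt2d-/- and 98% to 99.3% in Kmt2d+/+ clones at day 7, so Aldoc remained the minor form where it rose. Of the phosphofructokinase level at day 7, Pfkl gave 40.02% to 48.8% in Kmt2d-/- and 22.7% to 28.7% in Kmt2d+/+ clones, and Pfkm gave 44.8% to 51.5% in Kmt2d-/- and 60.1% to 66.9% in Kmt2d+/+ clones. These shares did not overlap between genotypes at day 7, whereas at day 0 those of Pfkl were 35.5% to 45.7% in Kmt2d-/- and 29.0% to 42.8% in Kmt2d+/+ clones and overlapped. Hk2, the hexokinase form of muscle and of proliferating cells, gave 29.5% and 51.0% of the hexokinase level in the Kmt2d-/- clones at day 0 against 55.6% to 56.5% in the Kmt2d+/+ clones. Shares of a family show unequal change and not which form changed, and they were not tested.

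**Figure D3:**
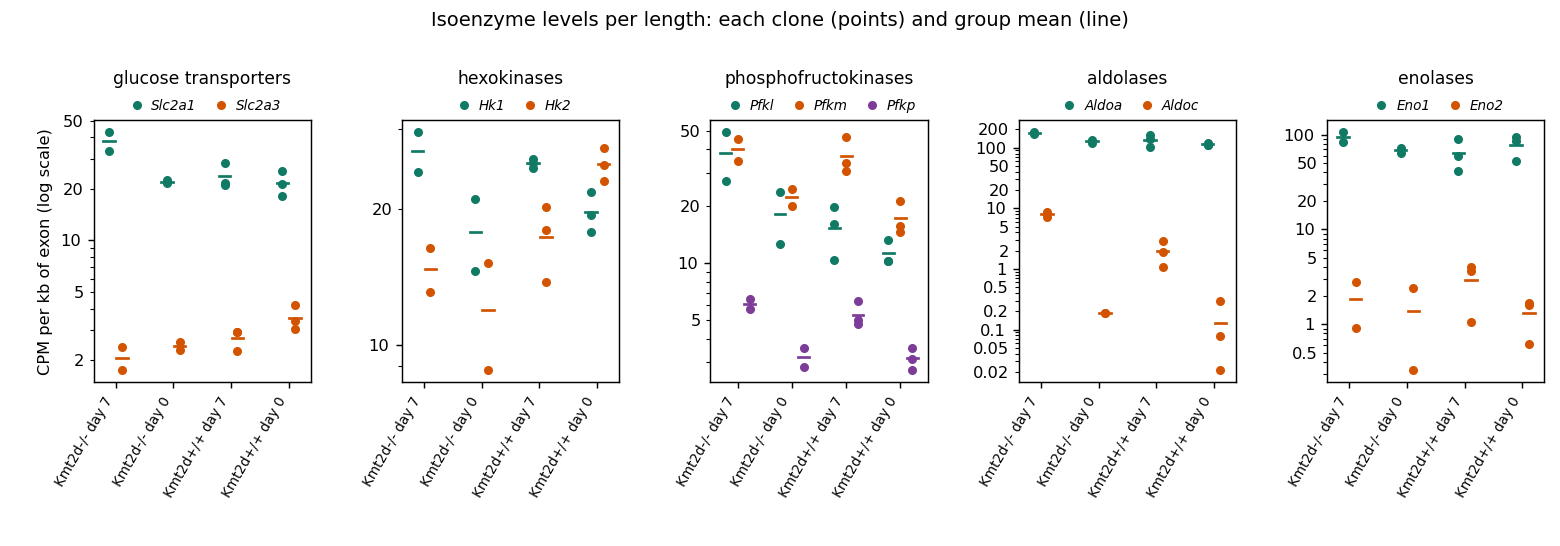
CPM per kilobase of exon (y axis, log scale) of the isoenzymes of 5 families by genotype and day (x axis, day 7 before day 0); points are clones and short lines are group means. Aldoc lies below Aldoa in every group and moves most, with means of 7.93 at day 7 and 0.187 at day 0 in Kmt2d-/- clones, and 1.95 at day 7 and 0.130 at day 0 in Kmt2d+/+ clones.

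The metabolic switches are the bifunctional enzymes Pfkfb3 and Pfkfb4, which set the level of the sugar phosphate that activates phosphofructokinase, and Pdk1, a kinase that shuts off pyruvate dehydrogenase. Pdk1 measured 134 and 98.3 CPM in Kmt2d-/- clones 1 and 2 at day 7, against 43.2 and 51.4 CPM at day 0. The Kmt2d+/+ clones had 69.9, 63.3 and 27.1 CPM at day 7, against 12, 44.2 and 23.8 CPM at day 0. It was higher at day 7 in every clone, but the Kmt2d+/+ days overlapped and neither difference passed (log2 fold change 1.30, SE 0.58, edgeR adjusted p = 0.347 in Kmt2d-/-, and 1.00, SE 0.47, edgeR adjusted p = 0.230 in Kmt2d+/+ clones). Pfkfb4 was low, at 1.12 to 7.504 CPM over the libraries. With all clones kept, it passed in the Kmt2d+/+ clones only with the clone term (log2 fold change 1.25 without it, edgeR adjusted p = 0.0281 with it and 0.171 without). Without Kmt2d+/+ clone 2 it passed in the fit lacking that term (log2 fold change 1.77, edgeR adjusted p = 0.0475). Pfkfb3 ranged from 65.1 to 146.9 CPM and passed in no comparison.

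Epas1 encodes HIF-2 alpha, the second alpha subunit, and Egln1 encodes the main oxygen-sensing prolyl hydroxylase. Epas1 measured 11.9 and 15.2 CPM in Kmt2d-/- clones 1 and 2 at day 7, against 4.42 and 2.02 CPM at day 0. Kmt2d+/+ clones 1 to 3 held 29.6, 14.2 and 6.42 CPM at day 7, against 1.12, 3.04 and 1.81 CPM at day 0. Kmt2d+/+ clone 1 moved most, and all 5 clones were higher at day 7 with no overlap of the days within a genotype. The fold was 8.38 in the Kmt2d+/+ clones (log2 fold change 3.07, SE 0.62, edgeR adjusted p = 0.0324) and 4.24 without clone 1 (edgeR adjusted p = 0.187). In the Kmt2d-/- clones the log2 fold change was 2.07 (SE 0.72) and did not pass (edgeR adjusted p = 0.220).

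Egln1 measured 229.6 and 175.7 CPM in Kmt2d-/- clones 1 and 2 at day 7, against 181.7 and 143.4 CPM at day 0. Its Kmt2d+/+ levels were 143.4, 172.9 and 105.9 CPM at day 7, against 164.8, 203.6 and 158.9 CPM at day 0. It was thus higher at day 7 in both Kmt2d-/- clones and lower in all 3 Kmt2d+/+ clones. Neither day difference passed (edgeR adjusted p = 0.660 and 0.391), and the difference between them did not pass either (log2 difference 0.64, SE 0.34, edgeR adjusted p = 1).

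Other genes of the HIF system were read from a list of 9, of which Hif3a was too low to test. Hif1a encodes the first alpha subunit and lies on chromosome 12 (chr12:73901375-73947530). At day 7 the Kmt2d-/- clones held 416.5 and 475.4 CPM of it, against 175, 194.9 and 154 CPM in the Kmt2d+/+ clones. At day 0 the Kmt2d-/- clones held 248.9 and 235.9 CPM, against 117.2, 155.3 and 94.2 CPM in the Kmt2d+/+ clones. The genotypes did not overlap at either day, and Hif1a was the gene of this list that passed at day 7, as higher in the Kmt2d-/- clones (2.55-fold, log2 fold change 1.35, SE 0.21, edgeR adjusted p = 0.0252). At day 0 the difference of 0.99 (SE 0.21) missed the threshold (edgeR adjusted p = 0.0513). Chromosome 12 from 40 Mb on is a segment in which the 374 tested genes had a median genotype difference of 0.67 at day 7 and 0.72 at day 0 on the log2 scale, so Hif1a exceeded that median by 0.68 at day 7 and 0.27 at day 0. Without Kmt2d-/- clone 1 or 2 the edgeR adjusted p at day 7 was 0.125 and 0.120, and without Kmt2d+/+ clone 1 or 3 it was 0.0795 and 0.147.

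Egln3, a prolyl hydroxylase that is itself a HIF target, lies in the same segment of chromosome 12. It measured 18.4 and 13 CPM in Kmt2d-/- clones 1 and 2 at day 7, against 1.02 and 2.38 CPM at day 0. Among Kmt2d+/+ clones it measured 2.22, 6.09 and 4.05 CPM at day 7, against 0.745, 1.30 and 1.86 CPM at day 0. All 5 clones were higher at day 7, and both Kmt2d-/- clones exceeded every Kmt2d+/+ clone there. The genotype difference at day 7 was 1.93 (SE 0.54, edgeR adjusted p = 0.0975), and the day differences were 3.21 in Kmt2d-/- and 1.66 in Kmt2d+/+ clones, with edgeR adjusted p of 0.0548 and 0.0864 against 0.0276 and 0.0407 with the clone term. Hif1a also passed between days with that term alone, as higher at day 7 (log2 fold change 0.88 in Kmt2d-/- and 0.54 in Kmt2d+/+ clones, edgeR adjusted p = 0.0316 and 0.0334). Cited2, which competes with HIF for a coactivator, passed with it as lower at day 7 (log2 fold change -2.99 in Kmt2d-/- and -1.71 in Kmt2d+/+ clones, edgeR adjusted p = 0.0118 and 0.0150). The beta subunit gene Arnt, Vhl, the hydroxylase gene Egln2 and the asparaginyl hydroxylase gene Hif1an differed between genotypes at day 7 by 0.05, 0.04, -0.05 and 0.44 on the log2 scale, and at day 0 by 0.10, -0.26, -0.20 and 0.56. None of these 8 values passed, the smallest edgeR adjusted p being 0.138 for Hif1an at day 0. Arnt2, a second beta subunit gene, measured 60.9 and 38.3 CPM in the Kmt2d-/- clones against 74.8, 109.1 and 86.4 CPM in the Kmt2d+/+ clones at day 7. At day 0 its levels were 40.97 and 45.6 CPM in the Kmt2d-/- clones against 90.4, 97.8 and 63.2 CPM in the Kmt2d+/+ clones. Both Kmt2d-/- clones lay below every Kmt2d+/+ clone at each day, by log2 fold changes of -0.86 (SE 0.27) at day 7 and -0.95 (SE 0.27) at day 0 that did not pass (edgeR adjusted p = 0.130 and 0.0958).

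**Figure D4:**
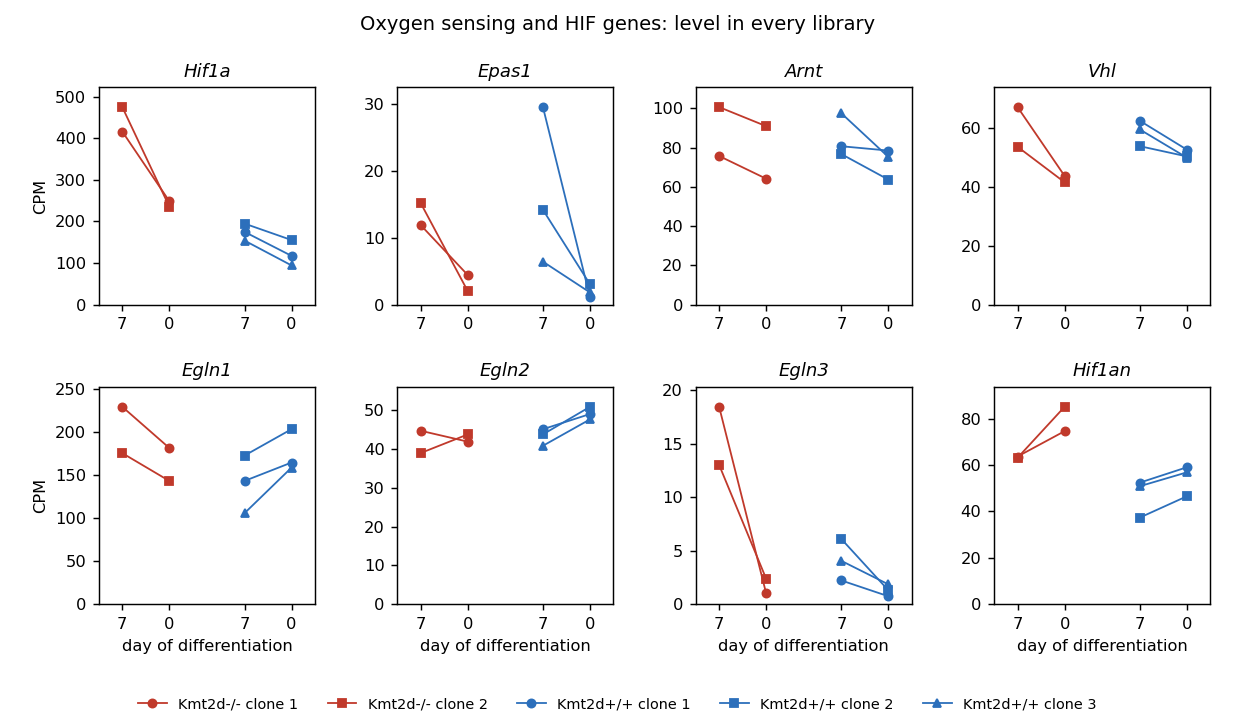
CPM (y axis, linear, from 0) of 8 oxygen-sensing and HIF genes in every library, with day 7 to the left of day 0 (x axis) and a line joining the libraries of a clone. Hif1a of the Kmt2d-/- clones (red) lies above all Kmt2d+/+ clones (blue) at both days, and Egln1 runs in opposite directions in the 2 genotypes.

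The secreted and surface targets are Vegfa, an angiogenic growth factor, Adm, a vasodilator peptide, and the membrane carbonic anhydrases Car9 and Car12. Car9 measured 1.44 and 2.48 CPM in Kmt2d-/- clones 1 and 2 at day 7, against 0.483 and 0.0917 CPM at day 0. In Kmt2d+/+ clones 1, 2 and 3 it stood at 1.00, 14.98 and 1.06 CPM at day 7, against 0, 0.139 and 0.0211 CPM at day 0. Kmt2d+/+ clone 2 carried most of its group's level, and the 3 day 0 libraries held 7 counts in all, so the fitted fold depends on very few reads. The difference passed in the Kmt2d+/+ clones (log2 fold change 6.63, SE 1.53, edgeR adjusted p = 0.0443), and also without clone 2 (6.17, edgeR adjusted p = 0.0368). DESeq2 gave Car9 no p-value in that comparison.

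Car12 measured 8.19 and 7.81 CPM in Kmt2d-/- clones 1 and 2 at day 7, against 0.483 and 0.0459 CPM at day 0. The Kmt2d+/+ clones had 4.19, 1.09 and 1.15 CPM at day 7, against 0.0573, 0.464 and 0 CPM at day 0. Every clone was higher at day 7 with no overlap between days in either genotype, yet neither difference passed in edgeR (log2 fold change 4.91, SE 1.57, edgeR adjusted p = 0.178 in Kmt2d-/-, and 3.6, SE 1.24, edgeR adjusted p = 0.117 in Kmt2d+/+ clones). Both passed in DESeq2, with adjusted p of 0.00567 in Kmt2d-/- and 0.0113 in Kmt2d+/+ clones. Vegfa averaged 131.4 ± 25.9 CPM in Kmt2d-/- clones (SD, n = 2) and 177 ± 106 CPM in Kmt2d+/+ clones (SD, n = 3) at day 7, where Kmt2d+/+ clone 1 reached 298.3 CPM. Adm was at or near the detection floor of 3 counts in several libraries, ranging from 0 to 1.15 CPM. Neither passed in any comparison.

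The intracellular targets include the mitophagy receptors Bnip3 and Bnip3l. Bnip3 measured 105.7 and 119.7 CPM in Kmt2d-/- clones 1 and 2 at day 7, against 41.5 and 67.0 CPM at day 0. Kmt2d+/+ clones 1 to 3 held 91.4, 90.8 and 51.9 CPM at day 7, against 22.7, 33.2 and 30.3 CPM at day 0. The Kmt2d-/- clones were above every Kmt2d+/+ clone at each day, and the days did not overlap within a genotype. Its rise in the Kmt2d+/+ clones was 2.71-fold (log2 fold change 1.44, SE 0.27, edgeR adjusted p = 0.0273), and in the Kmt2d-/- clones the log2 fold change of 1.05 (SE 0.33) did not pass (edgeR adjusted p = 0.172). Bnip3l followed with log2 fold changes of 0.74 in Kmt2d-/- and 0.66 in Kmt2d+/+ clones (edgeR adjusted p = 0.146 and 0.0654), of which the Kmt2d+/+ value passed with the clone term (edgeR adjusted p = 0.0349).

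Ddit4 (REDD1), an inhibitor of mTORC1 signalling, measured 43.1 and 111.1 CPM in Kmt2d-/- clones 1 and 2 at day 7, against 16.98 and 19.8 CPM at day 0. Its Kmt2d+/+ levels were 108.4, 88.5 and 96.7 CPM at day 7, against 36.8, 46.3 and 27.4 CPM at day 0. All 5 clones were higher at day 7, and at day 0 both Kmt2d-/- clones lay below every Kmt2d+/+ clone. The rise passed in the Kmt2d+/+ clones (log2 fold change 1.41, SE 0.33, edgeR adjusted p = 0.0452), and in the Kmt2d-/- clones it did not (2.07, SE 0.41, edgeR adjusted p = 0.0529), where it passed with the clone term (1.92, SE 0.33, edgeR adjusted p = 0.0334).

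Mxi1, a MYC antagonist, measured 79.2 and 111.8 CPM in Kmt2d-/- clones 1 and 2 at day 7, against 57.9 and 95.9 CPM at day 0. Among Kmt2d+/+ clones it measured 104.8, 63.8 and 68.8 CPM at day 7, against 42.7, 27.7 and 34.0 CPM at day 0. The Kmt2d-/- clones already stood above the Kmt2d+/+ clones at day 0, and the genotypes overlapped at day 7. The rise passed in the Kmt2d+/+ clones (log2 fold change 1.19, SE 0.28, edgeR adjusted p = 0.0477) and not in the Kmt2d-/- clones (0.31, SE 0.34, edgeR adjusted p = 0.754).

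Higd1a, a small protein of the inner mitochondrial membrane, measured 36.9 and 28.8 CPM in Kmt2d-/- clones 1 and 2 at day 7, against 17.9 and 15.3 CPM at day 0. In Kmt2d+/+ clones 1, 2 and 3 it stood at 18.9, 28.7 and 21.2 CPM at day 7, against 15.1, 25.1 and 19.0 CPM at day 0. The days overlapped in the Kmt2d+/+ clones and not in the Kmt2d-/- clones, where the difference passed with the clone term (log2 fold change 0.98, SE 0.15, edgeR adjusted p = 0.0244) and not without it (edgeR adjusted p = 0.158). Ndrg1, a stress-responsive gene, was lower at day 7 in Kmt2d-/- clone 1 (53.9 against 86.7 CPM) and nearly unchanged in Kmt2d-/- clone 2 (47.0 against 47.2 CPM). It was higher at day 7 in all 3 Kmt2d+/+ clones. The fitted log2 fold changes of -0.41 and 0.40 did not pass. Ankrd37, which encodes an ankyrin repeat protein, ranged from 1.49 to 5.47 CPM, and the histone lysine demethylase gene Kdm3a ranged from 46.7 to 75.2 CPM. Neither passed in any comparison, and the fitted differences of Kdm3a were within 0.09 of 0 on the log2 scale in all 5 comparisons.

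The second comparison asked which genes differed between the genotypes at a given day. At day 7 none of the 36 passed (edgeR adjusted p under 0.05), against 1.87% of all tested genes, and 7 (19.4%) had an unadjusted p under 0.05, against 19.9% of all tested genes. At day 0 none passed either, against 2.15% of all tested genes, and 6 (16.7%) had an unadjusted p under 0.05, against 20.2% of all tested genes. Both shares are near the background. DESeq2 called Slc2a1, Pfkl, Aldoc, Tpi1 and Pgam1 higher in the Kmt2d-/- clones at day 7, when it called 10.4% of all tested genes in either direction. It called Hk2 lower and Mxi1 higher at day 0, when it called 10.6% in either direction. limma-voom called Aldoc alone of the 36 at day 7, when it called 3.45% of all tested genes, and none of them at day 0, when it called 1.72%. Fitted differences were positive for 24 of the 36 genes at each day, with medians of 0.30 at day 7 and 0.13 at day 0, against -0.02 and 0.01 over all tested genes.

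At day 7 both Kmt2d-/- clones lay above all 3 Kmt2d+/+ clones for 16 genes (44.4%), against 17.9% of all tested genes. Those were Slc2a1, Slc16a3, Gpi1, Pfkl, Aldoa, Aldoc, Tpi1, Gapdh, Pgam1, Pdk1, Egln1, Adm, Car12, Bnip3, Bnip3l and Higd1a. At day 0 the count was 6 (16.7%), namely Aldoa, Tpi1, Pgam1, Bnip3, Bnip3l and Mxi1, against 18.6% of all tested genes, a share near the background. The chondrocyte markers moved with the genotype at day 7 as well: 11 of 11 had a positive fitted difference, with a median of 3.39 on the log2 scale, and Col2a1, Matn1 and Matn3 passed. Their part in the order of the 16 genes was not tested.

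The 3 genes with the smallest p at day 7 were Pgam1, Pfkl and Tpi1. Pgam1, the phosphoglycerate mutase, reached 666.6 and 597.7 CPM in the Kmt2d-/- clones, against 390.5, 374.5 and 334.1 CPM in the Kmt2d+/+ clones. Every Kmt2d-/- clone was above every Kmt2d+/+ clone, and the difference missed the threshold (1.73-fold, log2 fold change 0.79, SE 0.21, edgeR adjusted p = 0.0901). Pfkl differed 2.47-fold (log2 fold change 1.31, SE 0.36, edgeR adjusted p = 0.0962), and that of Tpi1 was 1.55-fold (0.63, SE 0.19, edgeR adjusted p = 0.115). Both rest on the levels given above, where Kmt2d-/- clone 2 held the highest Pfkl value and clone 1 the highest Tpi1 value.

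At day 0 the smallest p belonged to Hk2, Mxi1 and Bnip3. Hk2 measured 90.5 and 52.6 CPM in Kmt2d-/- clones 1 and 2, against 162.6, 137.9 and 149 CPM in Kmt2d+/+ clones 1, 2 and 3. Both Kmt2d-/- clones were below every Kmt2d+/+ clone, by a log2 fold change of -1.07 (SE 0.26) that did not pass (edgeR adjusted p = 0.0654). For Mxi1 the difference was 2.21-fold (log2 fold change 1.14, SE 0.31, edgeR adjusted p = 0.0829), and for Bnip3 it was 1.89-fold (0.92, SE 0.30, edgeR adjusted p = 0.132). The segments with shifted levels that were examined are chromosome 12 from 40 Mb, chromosome 7 to 20 Mb and chromosome 13 to 60 Mb. Pfkp, on chromosome 13, is the one gene of the 36 in them, and other regions were not examined. Its differences of 0.19 at day 7 and 0.02 at day 0 lie under the segment medians of 0.39 and 0.46.

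**Figure D5:**
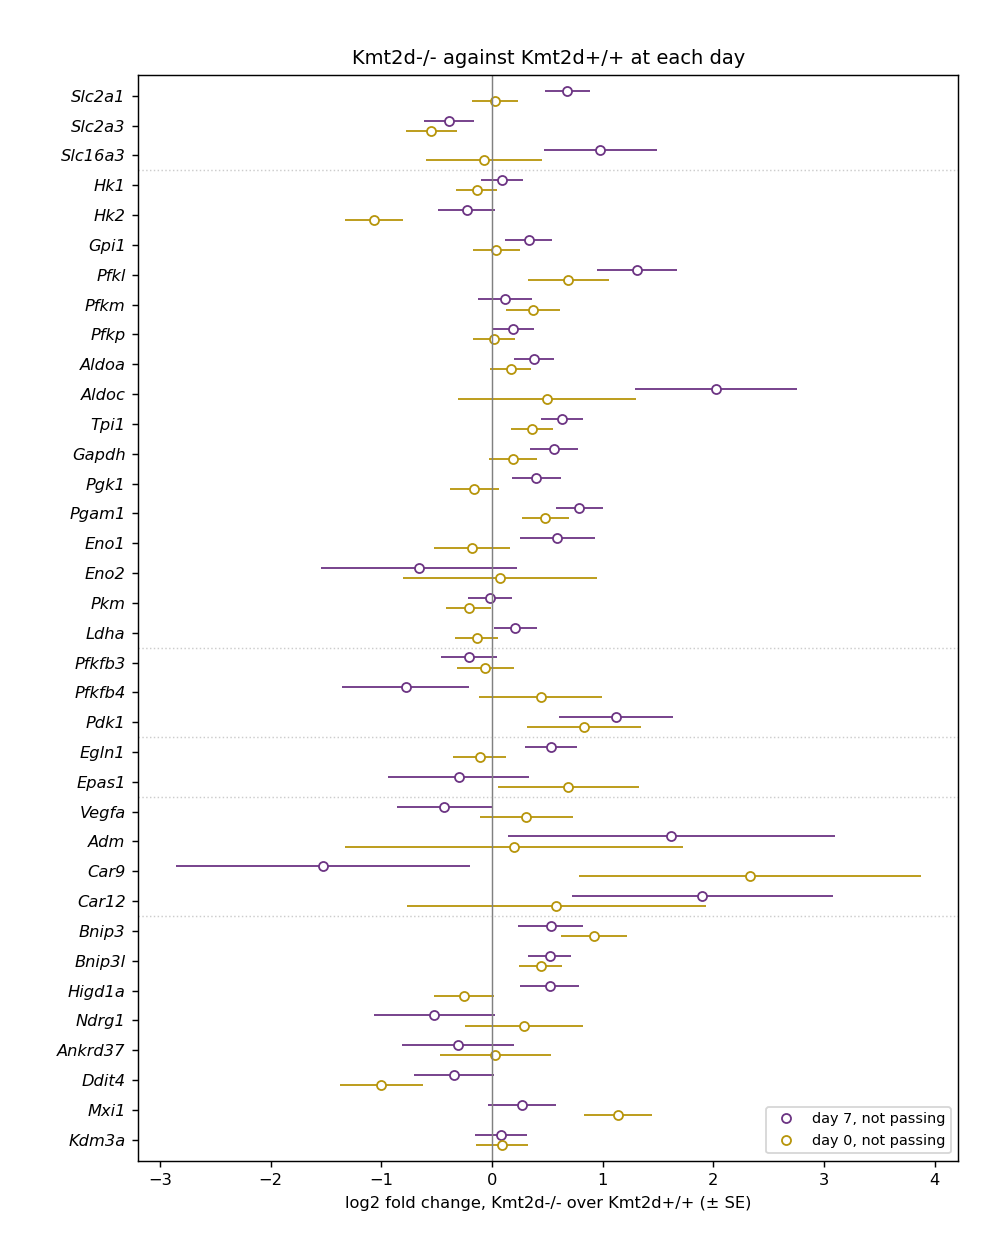
Log2 fold change of Kmt2d-/- over Kmt2d+/+ clones with its standard error (x axis) for the 36 genes (y axis, in blocks by role) at day 7 (purple) and day 0 (ochre); n = 2 Kmt2d-/- and 3 Kmt2d+/+ clones. All circles are open because no gene had an edgeR adjusted p under 0.05; Pfkl at 1.31 and Pgam1 at 0.79 at day 7 and Hk2 at -1.07 at day 0 lie several standard errors from 0.

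The last comparison asked whether the day effect differed between genotypes. None of the 36 genes passed the interaction test, as none of the 15467 tested genes did (0%). Without the clone term, 1 of the 36 (2.78%) had an unadjusted p under 0.05, no more than the 3.67% of all tested genes. That gene was Hk2, which measured 97.9 and 78.4 CPM in Kmt2d-/- clones 1 and 2 at day 7, against 90.5 and 52.6 CPM at day 0. The Kmt2d+/+ clones had 107.1, 120.4 and 82.3 CPM at day 7, against 162.6, 137.9 and 149 CPM at day 0. The day effect in Kmt2d-/- less that in Kmt2d+/+ clones was 0.84 on the log2 scale (SE 0.36, edgeR adjusted p = 1). Hk2 and Egln1 were higher at day 7 in both Kmt2d-/- clones and lower in all 3 Kmt2d+/+ clones, as were 2.08% of all tested genes. Ndrg1 showed the reverse by sign, as did 2.75% of all tested genes, but its log2 change in Kmt2d-/- clone 2 was only -0.01. Egln1 and Ndrg1 were singled out after their values were seen. For Slc2a1 and Higd1a, next by p, the differences of the day effects were 0.65 (SE 0.29) and 0.77 (SE 0.38), each with an edgeR adjusted p of 1. With the clone term more of the 36 had an unadjusted p under 0.05. Mxi1 had the smallest, with a difference of -0.84 (SE 0.17, edgeR unadjusted p = 0.00263, adjusted p = 0.389). Higd1a followed with 0.76 (SE 0.19, edgeR unadjusted p = 0.00615, adjusted p = 0.428). None passed, and the share of all tested genes under 0.05 was not counted in that fit. The size of a gene's rise thus cannot be said to differ between genotypes for any of the 36, including those that passed in one genotype only.

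Genes of neighbouring pathways were read from lists. Of 26 other hypoxia-induced genes, all tested, Selenbp1 rose and Nrn1 fell at day 7 in the Kmt2d-/- clones, and Ppp1r3c and Selenbp1 rose in the Kmt2d+/+ clones. Ppp1r3c, which targets a phosphatase to glycogen, averaged 12.2 ± 5.51 CPM at day 7 against 2.47 ± 0.391 CPM at day 0 in Kmt2d+/+ clones (SD, n = 3; log2 fold change 2.31, SE 0.39, edgeR adjusted p = 0.0218). Nrn1, a neuronal surface protein gene on chromosome 13, averaged 81.5 ± 1.24 CPM at day 7 against 238.8 ± 62.6 CPM at day 0 in Kmt2d-/- clones (SD, n = 2; log2 fold change -1.55, SE 0.22, edgeR adjusted p = 0.0207). It was the one gene of the list to differ between genotypes, as lower in Kmt2d-/- clones at day 7, by -1.03 on the log2 scale (SE 0.20, edgeR adjusted p = 0.0430). That call was lost without any 1 of the 5 clones, with edgeR adjusted p of 0.0572 to 0.225.

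Selenbp1, a selenium-binding protein gene, measured 7.56 and 3.50 CPM in Kmt2d-/- clones 1 and 2 at day 7, against 0.193 and 0.183 CPM at day 0 (29.0-fold, edgeR adjusted p = 0.0305). Without Kmt2d-/- clone 1 the fold was 18.8 (edgeR adjusted p = 0.360). In Kmt2d+/+ clones it held 389 counts at day 7 and 1 count at day 0, a ratio of 262 per library size with an exact 95% interval of 46.7 to 10360 that covers counting error only (edgeR adjusted p = 0.00741). That 1 count lay in Kmt2d+/+ clone 1, so without this clone day 0 is at 0 counts and no fold is given (edgeR adjusted p = 0.0648). Without Kmt2d+/+ clone 3 the edgeR adjusted p was 0.186. Of 25 genes of pyruvate dehydrogenase and the tricarboxylic acid cycle, Ogdh alone passed, at 210.1 ± 49.5 CPM at day 7 against 108 ± 21.4 CPM at day 0 in Kmt2d+/+ clones (SD, n = 3; log2 fold change 0.96, SE 0.21, edgeR adjusted p = 0.0381). No gene of the other glycolytic isoenzymes (10 tested of 14), gluconeogenesis (4 of 7) or the pentose phosphate pathway (7 of 7) passed in any edgeR comparison without the clone term. The median log2 fold changes at day 7 over day 0 were 0.46 in Kmt2d-/- and 0.22 in Kmt2d+/+ clones for the other hypoxia-induced genes, and 0.16 and -0.08 for the cycle.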

How the data were processed

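Poly(A) RNA was sequenced from 10 libraries, 5 clones at 2 days, each with 2 runs that the labels call technical replicates. The authors deposited estimated counts per Ensembl gene; the submitters' processing notes name Salmon, edgeR, limma, DESeq2 and GRCm38, with no version, annotation or strand setting stated. Few values were whole (0.351% of those above 0, within 0.001). The runs of a library (correlation 0.989 to 0.992) were summed and rounded. With edgeR 4.0.16 (R 4.3.3), genes were filtered by filterByExpr, scaled by TMM and tested by the quasi-likelihood F test with 1 mean per group, 6 residual degrees of freedom and Benjamini-Hochberg adjustment over 15467 genes (threshold 0.05). The common biological coefficient of variation was 0.385. Each edgeR standard error (SE), in the text and figures, was derived from the test, as the absolute log2 fold change over the square root of F. The floor of 3 counts was 0.0859 CPM in the shallowest library. The test was tried on simulated counts.

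Day 7 and day 0 libraries of a clone deviated together (correlations 0.363 to 0.571), so clone was also entered as a term (replicate block, 3 residual degrees of freedom). Between genotypes a shared clone number pairs nothing. Symbols were absent for 481 of the gene IDs. Exon lengths and gene coordinates come from GENCODE (GRCm38). Copies were transcripts at least 95% identical over 300 bases, an alternative chosen after seeing the data. Alternatives were DESeq2 1.42.0, limma-voom (limma 3.58.1), other scaling, no filter, single runs, the 2 compared groups alone and each clone left out. The genes, lists and segments were chosen with earlier results of these data known. Full statistics were given for genes that passed or, where none did, for the 3 with the smallest p, for 6 HIF genes and for up to 3 passing genes per list. P-values without the clone term rest on the spread between clones, with the 2 libraries of a clone taken as independent. With the clone term they rest on the spread of the day change among clones. Some genes of the lists are not reported here.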

Additional observations from a re-analysis of the deposited data

How the results depend on the processing

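None of the differences that passed changed direction under the alternatives run on it. With the replicate block 7 differences of the 36 genes changed sign. That block is the clone term between days and in the interaction, and the clone number between genotypes. The 7 were at most 0.37 on the log2 scale without the block and passed in neither fit. The genotype differences of Pfkp, taken from the median of its segment, were -0.21 at day 7 and -0.44 at day 0. Between genotypes at day 7 none of the 36 passed, against 5 with DESeq2 (10.4% of all genes passing) and 1 with limma-voom (3.45%). At day 0 none passed, against 2 with DESeq2 (10.6%). With the clone number as a replicate block both counts were 0. For day 7 over day 0 in Kmt2d-/- clones 1 gene passed (1.27% of all genes passing), against 2 without the filter (1.02%), 10 with DESeq2 (6.46%), 2 with run 1 alone (1.38%), 0 with run 2 alone (0.922%), 0 with only the 2 groups compared (0%) and 5 with the replicate block (5.57%). Leaving out either clone gave 0 (0% and 0.137%). In Kmt2d+/+ clones 8 passed (5.08%), against 5 with limma-voom (5.08%), 5 with run 2 alone (4.33%) and 4 with only the 2 groups compared (4.44%), and 0 to 5 with 1 clone left out (0% to 5.68%). DESeq2 gave 9 there (14.7%) and the replicate block 11 (18%). The interaction count was 0 under every alternative run. The cause of these shifts was not tested. Where a Kmt2d-/- clone was left out, the lone clone was assumed to vary like the other groups. Car9, Car12 and Adm are limited by depth.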
